A study of Homo sapiens with 6 samples.

Results

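The D-type cyclins (CCND1, CCND2, CCND3), the cyclin-dependent kinases CDK4, CDK6 and CDK2, and the retinoblastoma family (RB1, RBL1, RBL2) were followed in NB4 cells treated with all-trans retinoic acid (ATRA). NB4 cells come from a human acute promyelocytic leukaemia and express PML-RARA, a fused retinoic acid receptor. ATRA binds such receptors and makes these cells mature toward neutrophils. RNA was profiled on 6 Affymetrix arrays, 1 each for untreated cells (0 h) and for cells harvested 4, 12, 24, 48 and 72 h after ATRA was added at 1e-06 M. All groups are the same cell line grown in RPMI medium with serum, there are no replicates, and the labels name no vehicle-treated culture, so time in ATRA and time in culture cannot be told apart. Every probe set annotated to 1 of the 9 genes alone was taken, which gave 27 of the 41091 single-gene probe sets and 9 of the 19775 genes of the series, and no probe set was shared between a member and another gene.

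These genes form the switch by which growth signals commit a cell to a new division. D-type cyclins, made in answer to growth factors, activate CDK4 and CDK6, and cyclin E activates CDK2. The kinases phosphorylate RB1 and its relatives RBL1 (p107) and RBL2 (p130), which then release E2F factors that switch on genes for DNA synthesis. Cells that mature into neutrophils leave the cell cycle, and unphosphorylated RB proteins and falling CDK activity are well known features of that exit.

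Values are log2 probe set summaries, so a difference of 1 is a 2-fold change. Array medians lay between 3.64 and 3.69. The spiked bioC control averaged 8.01 and 8.11 on the 0 and 12 h arrays and between 6.88 and 7.17 on the other 4, so slopes are also given with bioC as a covariate. The 3' signals of GAPDH and actin exceeded their 5' signals by 0.02 to 0.26 over all arrays. Of 8 listed markers of the neutrophil lineage 7 had a single-gene probe set and 6 passed the filter, of which 2 fell and 2 rose by the limma trend used for the members. Of the granule proteins, MPO (10.92 at 72 h, 12.90 untreated) and CTSG (4.40 and 6.83) fell. PRTN3 (11.07 and 10.76), above untreated at each later time, and AZU1 (9.05 and 9.32) were not called. The granulocyte factor CEBPE (10.69 and 8.19) and the integrin ITGAM (9.90 and 5.83) rose, and the elastase ELANE stayed at or below 3.32. Of 2 tested ITGAM probe sets, 1 had the sign of this rise at 72 h. None of the 5 monocyte and macrophage markers passed the filter, with all values between 2.37 and 3.59. The highest values among B cell, T and NK cell, erythroid, and fibroblast and epithelial markers were 6.82 (CD79A), 9.11 (NKG7), 7.55 (EPOR) and 5.86 (EPCAM). Of these 4 lists, called trends were found in the B cell list alone, where CD79A rose (6.82 at 72 h, 5.36 untreated) and CD79B fell (4.65 and 6.04), with MS4A1 at or below 2.75. The part of such cells or genes in the members' values was not tested.

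Only probe sets whose mean over the 6 arrays was at least 3.66, the median value of the data, were tested. They were 22 of the 27 member probe sets and covered all 9 genes. The 3 CDK6, 1 CDK2 and 1 RBL1 probe sets below it did not pass and reached no more than 3.60 on any array. At 72 h 6 of the 22 were 2-fold or more lower than untreated and 1 was higher, where 13.4% and 10.7% of all 22755 tested probe sets were. The member median difference at 72 h was -0.62, against -0.09 over all tested probe sets. The 6 were 2 probe sets of CCND2, the CDK4 probe set and 3 of CDK6, and the 1 was a probe set of CCND1. No RB family probe set reached 2-fold at any time. The 72 h array was the lowest of the 6 for 15 of the 22 member probe sets and the 4 h array for 6, while over all tested probe sets these arrays were lowest for 35.9% and 13.8%. In a culture of mixed cell cycle stages, fewer cycling cells and less RNA per cell cannot be told apart.

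**Figure D1:**
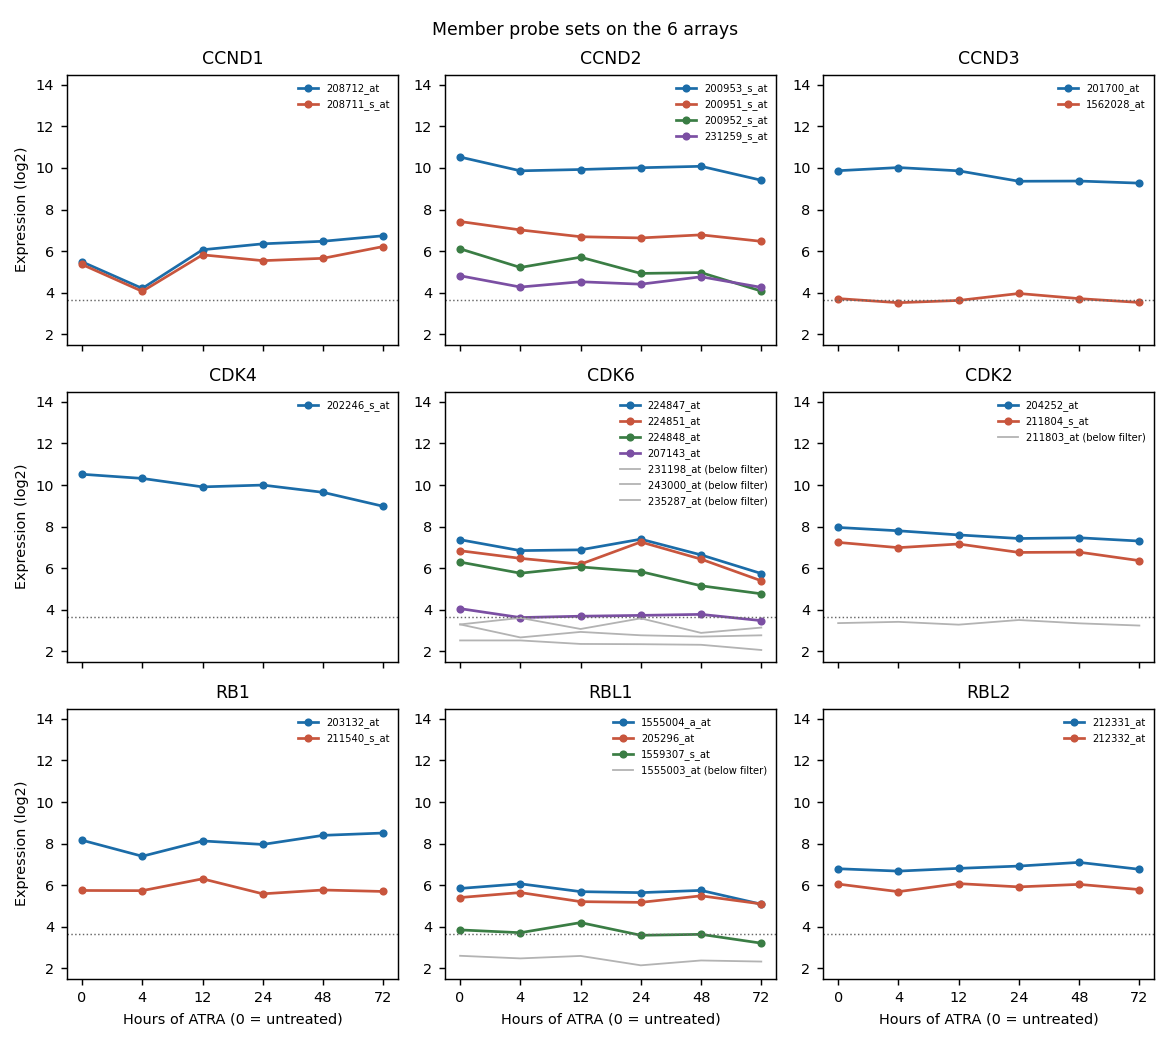
Expression (log2) of all 27 member probe sets against hours of ATRA, with the 6 arrays evenly spaced in time order and 1 line per probe set. Grey lines are the 5 probe sets below the filter and the dotted line marks 3.66. CCND1 dipped at 4 h and ended above untreated, while CDK4, CDK6 and CCND2 ended below it.

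At the earlier times few members differed by 2-fold. At 4 h 2 of 22 were lower and 0 higher, where 2.48% and 1.97% of all tested probe sets were. None passed 2-fold at 12 h, where 1.88% were lower and 2.35% higher. The 12 h array is the only one with control levels like those of the untreated array. At 24 h 1 was lower and 0 higher (2.56% and 3.38% of all), and at 48 h 2 and 0 (4.98% and 5.86%). The member medians were -0.37, -0.18, -0.25 and -0.25 at 4, 12, 24 and 48 h.

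**Figure D2:**
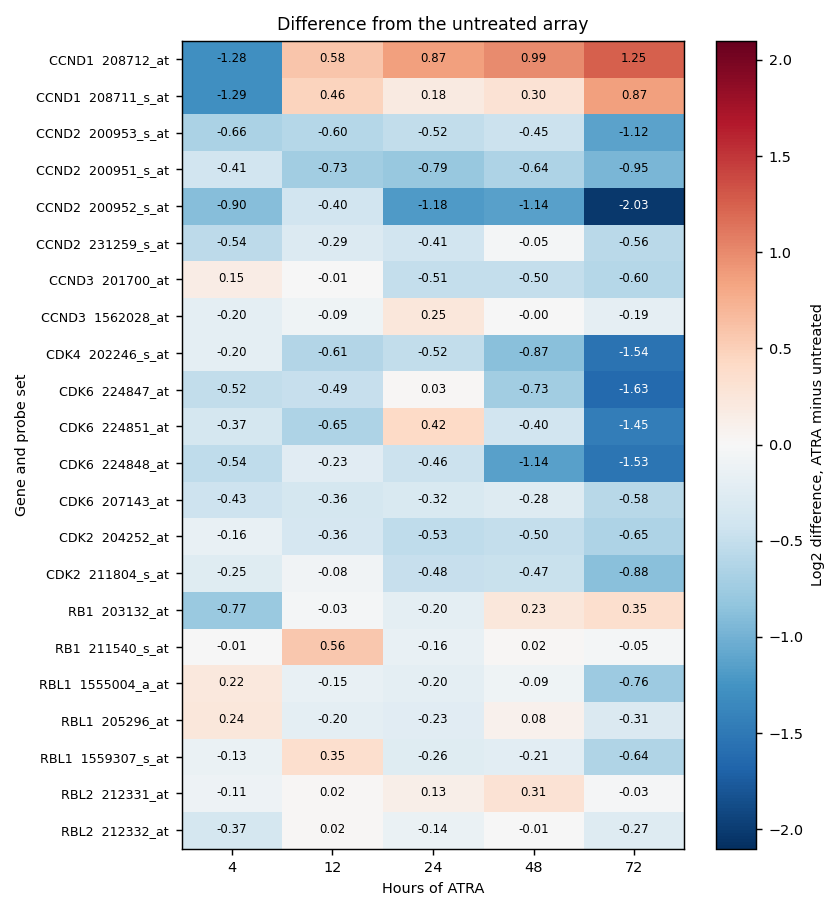
Log2 difference from the untreated array for the 22 tested member probe sets (rows) at each ATRA time (columns), printed in each cell and coloured red for higher and blue for lower. Blue deepens in the 72 h column for CCND2, CDK4 and CDK6, and the CCND1 rows turn to red after 4 h.

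The slope over time order (0 to 5, in log2 per step) was fitted with limma over all tested probe sets. It called 4 of 22 members falling and 0 rising at an adjusted p under 0.05, where 10.7% of all tested probe sets were called falling and 7.96% rising. These 4 were CDK4 and 1 probe set each of CDK6, CCND2 and CCND3, of which CDK4 alone passed with the bioC covariate (adjusted p from 0.0694 to 0.0955 for the other 3). Without the untreated array or without the 72 h array 1 was called falling, in both cases CDK4, and without the 48 h array 2. Before adjustment 11 of the 22 had a p under 0.05, as did 34.0% of all tested probe sets. The members' median slope was -0.12 per step, against -0.02 over all tested probe sets.

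**Figure D3:**
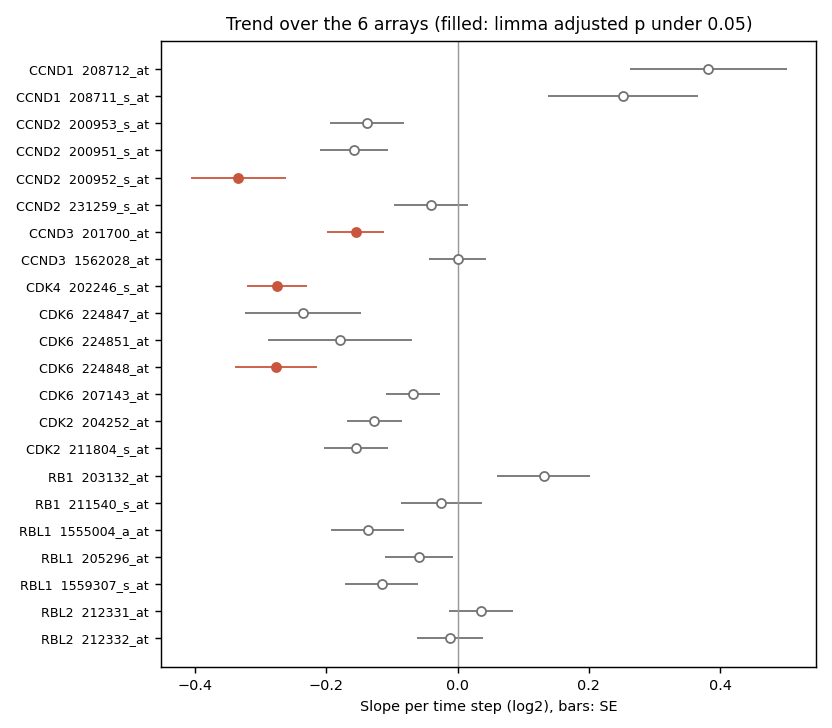
Slope per time step (log2) of the 22 tested member probe sets, with bars of 1 SE from the limma fit over 6 arrays. Filled red points passed the adjusted threshold, and these are the 4 falling probe sets of CCND2, CCND3, CDK4 and CDK6.

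CCND1 encodes cyclin D1, a D cyclin often amplified in epithelial tumours. Its probe set 208712_at read 5.48, 4.20, 6.06, 6.35, 6.47 and 6.74 at 0, 4, 12, 24, 48 and 72 h. Probe set 208711_s_at read 5.35, 4.06, 5.82, 5.54, 5.65 and 6.22 at the same times. Both were lowest at 4 h and highest at 72 h, and their Pearson r over the 6 arrays was 0.95. At 4 h they were 2.43- and 2.45-fold lower than untreated, which placed them at percentiles 1.26 and 1.20 of all tested differences. At 72 h they were 2.39- and 1.82-fold higher than untreated and 5.80- and 4.47-fold higher than at 4 h.

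The CCND1 slopes of 0.38 ± 0.12 and 0.25 ± 0.11 per step (SE, 6 arrays) were not called (limma adjusted p = 0.0603 and 0.163). They passed when the bioC level was a covariate (limma adjusted p = 0.0318 and 0.0217), and 208712_at also without the 4 h array (adjusted p = 0.0212, slope 0.25). The 4 h dip lies on 1 array, whose control levels differ from those of the untreated array. Whether the dip would return on a second culture was not tested. Between the 12 h and untreated arrays, which had similar bioC values, the CCND1 differences were 0.58 and 0.46.

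CCND2 encodes cyclin D2, which with cyclin D3 is a usual D cyclin of blood cells. Probe set 200953_s_at read 10.53, 9.86, 9.93, 10.01, 10.08 and 9.41 over the time course. Its values were highest in untreated cells, nearly level from 4 to 48 h and lowest at 72 h, 2.17-fold below untreated. Probe set 200952_s_at read 6.11, 5.21, 5.70, 4.92, 4.96 and 4.07 and was 4.10-fold lower at 72 h, where its reading lay near the filter. It fell by 0.33 ± 0.07 per step (SE, limma adjusted p = 0.0191), but not without the 72 h array (adjusted p = 0.162) or without the untreated array (0.0948). Probe sets 200951_s_at and 231259_s_at differed by -0.95 and -0.56 at 72 h and were not called (adjusted p = 0.0696 and 0.670). All 4 were highest in untreated cells. They gave 72 h differences from -2.03 to -0.56, so the size of the CCND2 difference depends on the probe set.

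CCND3 encodes cyclin D3, which granulocyte precursors need in mice. Probe set 201700_at read 9.87, 10.02, 9.86, 9.36, 9.37 and 9.27, level up to 12 h and then lower, with differences of -0.51, -0.50 and -0.60 at 24, 48 and 72 h. It fell by 0.16 ± 0.04 per step (SE, limma adjusted p = 0.0414). This call did not pass when any single array was left out (adjusted p from 0.0596 to 0.148). Relative to the median of all tested probe sets the 72 h difference was -0.51, and -0.29 when the arrays were scaled by cyclic loess. The slope was not called under cyclic loess (limma adjusted p = 0.176) or without the intensity trend of limma (0.0520). The second probe set, 1562028_at, stayed between 3.51 and 3.96, close to the filter, with no call (adjusted p = 0.999).

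CDK4 is the kinase partner of D cyclins in most tissues. Its single probe set read 10.52, 10.32, 9.91, 10.00, 9.65 and 8.98 at 0, 4, 12, 24, 48 and 72 h. Each array after 4 h lay below both earlier ones, and 72 h was the lowest, 2.91-fold below untreated. It fell by 0.28 ± 0.05 per step (SE, limma adjusted p = 0.00876), the smallest adjusted p among the members. CDK4 was called whichever single array was left out (adjusted p from 0.00967 to 0.0482, the highest without 72 h) and with the bioC covariate (0.0190). It was not called within the 4, 24, 48 and 72 h arrays alone (adjusted p = 0.0667). A shift of each array to an equal median of all hybridisation controls also left it uncalled (0.637). That shift adds the same amount to every probe set of an array.

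The RefSeq promoter window of CDK4 (GRCh38.p14, chr12:57752261-57752560, minus strand) is shown because the fall of CDK4 passed whichever array was left out, with E-boxes (CACGTG) in capitals, the core to which MYC with MAX and related factors bind. The window runs from 250 bases before to 50 after the start.
CDK4: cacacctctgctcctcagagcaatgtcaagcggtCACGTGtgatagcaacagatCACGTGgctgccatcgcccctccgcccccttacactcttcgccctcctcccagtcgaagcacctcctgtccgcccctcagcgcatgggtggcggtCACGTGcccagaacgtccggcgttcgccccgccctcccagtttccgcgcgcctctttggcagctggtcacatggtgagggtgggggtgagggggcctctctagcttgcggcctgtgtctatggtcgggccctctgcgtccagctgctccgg
It holds 3 E-boxes, which begin 216, 196 and 101 bases before the start. The motif reads the same on both strands. Of 35116 promoter windows, 7.26% held at least 1 E-box and 33 windows (0.0940%) at least 3. Of the 10 windows of 6 member genes in the table, 1 CDK6 window held 1 and the other CCND3, CDK6, RB1, RBL1 and RBL2 windows none. A match describes letters and is not evidence of binding.

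CDK6 is the other partner of D cyclins and is prominent in blood progenitors. Probe set 224847_at read 7.37, 6.84, 6.88, 7.39, 6.63 and 5.74 over the time course. It was at its untreated level at 24 h and 3.09-fold lower at 72 h. Probe set 224851_at followed it (Pearson r of 0.95 over 6 arrays), with its highest value at 24 h, 7.26, and a 72 h value of 5.39, against 6.83 in untreated cells. Neither slope was called (limma adjusted p = 0.102 and 0.294). Probe set 224848_at read 6.29, 5.75, 6.05, 5.83, 5.15 and 4.76 without a peak at 24 h. It fell by 0.28 ± 0.06 per step (SE, limma adjusted p = 0.0216), though not without the 72 h (adjusted p = 0.176), 48 h (0.0580) or untreated array (0.0771). The 72 h differences of all 3 lay between -1.63 and -1.45, while 207143_at lay close to the filter, from 3.47 to 4.05. For 224847_at time in hours in place of time order gave a call (adjusted p = 0.0333).

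CDK2 is the partner of cyclins E and A at the start of DNA synthesis. Probe set 204252_at read 7.96, 7.80, 7.60, 7.42, 7.46 and 7.30, and 211804_s_at read 7.24, 6.98, 7.16, 6.75, 6.77 and 6.36. Both were highest in untreated cells and lowest at 72 h, with differences of -0.65 and -0.88. Their slopes of -0.13 ± 0.04 and -0.16 ± 0.05 per step (SE) were not called (limma adjusted p = 0.0712 and 0.0609). Neither was called with the bioC covariate (adjusted p = 0.108 and 0.153). With any single array left out neither passed (from 0.0908 to 0.265 and from 0.0703 to 0.367). With time in hours (0.0415) or without the intensity trend of limma (0.0475) 211804_s_at was called. Relative to the median of all tested probe sets the 72 h differences were -0.56 and -0.79.

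RB1 encodes the retinoblastoma protein, the E2F-binding tumour suppressor. Probe set 203132_at read 8.16, 7.39, 8.13, 7.96, 8.40 and 8.51. Its lowest value was at 4 h, 1.71-fold below untreated, as for CCND1, and its highest at 72 h, 2.17-fold above 4 h and 1.27-fold above untreated. The slope of 0.13 ± 0.07 per step (SE) was not called (limma adjusted p = 0.236). Probe set 211540_s_at stayed between 5.58 and 5.76 except at 12 h, 6.30, and the 2 probe sets did not follow each other (Pearson r of 0.07 over 6 arrays). The RB1 dip at 4 h was thus seen in 1 of 2 probe sets.

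RBL1 encodes p107, which pairs with repressor E2Fs and whose own gene is a known E2F target in cycling cells. Probe set 1555004_a_at read 5.84, 6.06, 5.68, 5.64, 5.74 and 5.08, and 205296_at read 5.40, 5.64, 5.20, 5.17, 5.48 and 5.09. Both were highest at 4 h and lowest at 72 h, where they differed from untreated by -0.76 and -0.31. The third tested probe set, 1559307_s_at, was highest at 12 h (4.19). It differed by -0.13 at 4 h and by -0.64 at 72 h, so it did not share the peak at 4 h. None of the 3 tested RBL1 probe sets was called (limma adjusted p from 0.125 to 0.486). RBL2 encodes p130, the family member that prevails in resting cells. Its probe set 212331_at read 6.79, 6.67, 6.80, 6.92, 7.09 and 6.76, and 212332_at read 6.05, 5.68, 6.07, 5.91, 6.03 and 5.78. The RBL2 differences at 72 h were -0.03 and -0.27, with no call (adjusted p = 0.669 and 0.903). The median 72 h differences were -0.27 over 7 RB family, -0.58 over 8 D cyclin and -1.45 over 7 CDK probe sets, a description without a test. These medians weigh each gene by its number of probe sets. Of the CDK probe sets 4 are of CDK6, while CDK4 differed by -1.54 and CDK2 by -0.65 and -0.88. The D cyclins join 2 higher probe sets of CCND1 with 4 lower ones of CCND2 and 2 of CCND3. The medians therefore do not rank the classes.

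The RefSeq promoter window of RBL1 (GRCh38.p14, chr20:37095948-37096247, minus strand) is shown because RBL1 is both an E2F partner and an E2F target, with E2F motifs in capitals.
RBL1: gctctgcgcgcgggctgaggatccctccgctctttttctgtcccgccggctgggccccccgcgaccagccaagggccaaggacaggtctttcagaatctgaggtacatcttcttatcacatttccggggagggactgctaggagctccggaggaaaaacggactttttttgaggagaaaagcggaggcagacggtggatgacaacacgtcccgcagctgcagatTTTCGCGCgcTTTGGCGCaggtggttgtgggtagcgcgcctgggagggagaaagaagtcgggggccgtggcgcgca
The motifs searched on both strands were TTTCGCGC, TTTGGCGC, TTTCCCGC and TTTGCCGC. The RBL1 window holds 2 that do not overlap, beginning 26 and 16 bases before the start. Of the 35116 windows 3.31% held at least 1 of these motifs and 51 (0.145%) at least 2. The other member windows held none, which says only that these letters are not in them.

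The direction of some 72 h differences depends on how the arrays are scaled. Shifting each array to equal hybridisation controls (bioB, bioC, bioD and cre) moved every 72 h difference by 0.66, and leaving out bioC moved it by -0.56. The median over all tested probe sets was then 0.57 and -0.65 in place of -0.09. Since each shift is 1 constant for all probe sets, it leaves differences relative to that median as they are, and a sign is kept where the difference exceeds the constant. Under the deposited values, cyclic loess and both shifts, 11 of 22 member probe sets had 1 sign at 72 h, where 40.2% of all tested probe sets did. These were both CCND1 probe sets (higher), 3 of 4 of CCND2, CDK4, 3 of 4 of CDK6, 211804_s_at of CDK2 and 1555004_a_at of RBL1 (lower). At 4 h 4 of 22 did, where 19.5% of all did: both of CCND1, 200952_s_at of CCND2 and 203132_at of RB1, all lower.

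**Figure D4:**
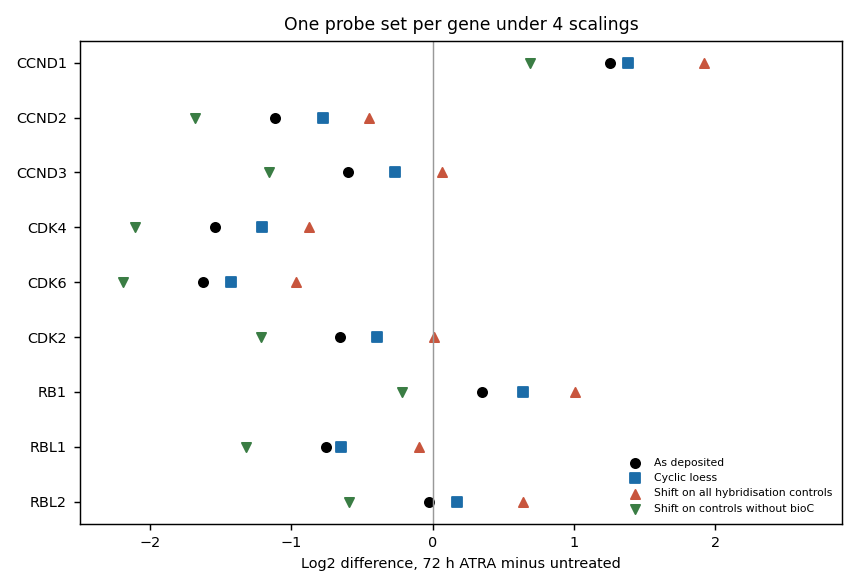
Log2 difference at 72 h of the probe set with the highest mean for each of the 9 genes, under 4 scalings of the same arrays. CCND1 stays above 0 and CCND2, CDK4, CDK6 and RBL1 below it under all 4, while CCND3, CDK2, RB1 and RBL2 cross 0. Each of the 2 control shifts moves all 9 genes by the same amount.

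The neighbours of these genes in the pathway were read from the same limma fit, with 1 probe set per gene, where 10.6% of genes were called falling and 8.57% rising. The median 72 h difference over these genes was -0.07. For some named neighbours not all tested probe sets shared the sign of the 72 h difference given here. It was shared by 1 of 2 for LIN37, CDKN2A and FBXO31, by 3 of 4 for CDK19 and by 4 of 5 for MCM4. Among cyclins E, A and B and CDK1, 2 of 6 tested genes fell and 0 rose, with a median 72 h difference of -1.07. CCNA2 (cyclin A2) fell, with -1.55 at 72 h, as did the CDK2 partner CCNE1 (cyclin E1, -1.42). The mitotic cyclins CCNB1 and CCNB2 differed by -1.18 and -0.95 without a call. Of the 15 tested S-phase genes known as E2F targets (median -0.90), 5 fell and 0 rose. They were the helicase subunits MCM4 (-1.99), MCM3 (-1.65), MCM7 (-1.44) and MCM2 (-1.37), and the helicase loader CDC6 (-1.58). RRM2 and TK1, which supply nucleotides, were not called (limma adjusted p = 0.629 and 0.806). RRM2 read 10.83, 11.13, 11.50, 11.76, 11.71 and 10.88 over the time course, above untreated at each later time, and without the 72 h array it was called rising (adjusted p = 0.0204). TK1 was also above untreated at every later time, by 0.21 to 0.63.

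Of 10 E2F and DP factors, through which RB proteins act, 2 fell and 0 rose (median -0.50). E2F5, a repressor that pairs with p130, fell (-1.84 at 72 h) and was 8.04, 7.04, 6.83, 6.88, 5.73 and 6.20 over the time course, lower than untreated from 4 h on. TFDP1, the DP partner of E2Fs, also fell (-1.12), while E2F8 (-0.90) and E2F2 (-0.74) were not called. With bioC as a covariate 0 of the 10 were called (adjusted p = 0.0692 for E2F5 and 0.0546 for TFDP1). Of 6 tested genes of the DREAM and MuvB group, which RBL1 and RBL2 join, 1 fell and 0 rose (median -0.42). MYBL2, which takes the place of the RB relatives on that complex, fell (-1.41), and FOXM1 (-1.02), the histone-binding subunit RBBP4 (-0.72) and LIN37 (0.29) were not called. MYBL2 was not called with the bioC covariate (adjusted p = 0.0584).

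Among 8 genes of CDK activation and the CDC25 phosphatases (median -0.59), 2 fell and 0 rose. CDC25A, which removes the inhibitory phosphate from CDK2, fell (-1.43), as did MNAT1, an assembly factor of the CDK-activating kinase (-0.89). The catalytic subunit of that kinase, CDK7, (-0.63) and CCNH (-0.60) were not called. Of 6 tested genes listed under D cyclin and p27 turnover (median -0.55), 2 fell and 0 rose. SKP2, a ubiquitin ligase subunit that targets p27, fell (-1.48), and so did CKS2 (-1.24). CKS1B of the same list differed by -0.35 without a call (limma adjusted p = 0.277). A role of CKS2 in p27 turnover was not tested. AMBRA1, which targets D cyclins for degradation, and FBXO31 differed by 0.85 and -0.75 without a call.

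CDK inhibitors had a median 72 h difference of 0.66. Of 4 tested genes 0 rose and 0 fell by limma (1 had an unadjusted p under 0.05). CDKN2D, which encodes p19 and binds CDK4 and CDK6, read 5.82, 8.04, 8.04, 7.65, 7.80 and 7.98 over the time course, higher than untreated at every time from 4 h on (limma adjusted p of the slope = 0.198). CDKN1A (p21) and CDKN1B (p27) differed by 0.73 and 0.58 at 72 h and CDKN2A by -0.27. CDKN1B was below untreated from 4 to 24 h and above it at 48 and 72 h.

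Other members of the CDK family moved in both directions, with 1 of 12 falling and 2 rising and a median 72 h difference of 0.19. CDK8, a kinase of the Mediator complex, fell (-1.42), and its close relative CDK19 rose (0.92). CDK18 also rose, with 4.06, 4.20, 4.35, 4.30, 5.15 and 7.04 over the time course, highest at 72 h. CDK17 differed by 1.17 without a call. Over the 8 lists 67 tested genes gave 15 falling and 2 rising calls. Of these 17 calls 2, E2F5 and MCM4, were also made without the 72 h array, where RRM2 was added. With bioC as a covariate 11 of the 17 were also made, and MCM6 and CDK7 were added. The 6 not made with it were E2F5, TFDP1, MYBL2, MNAT1 (adjusted p = 0.0537), CKS2 (0.102) and CDK18 (0.0656).

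**Figure D5:**
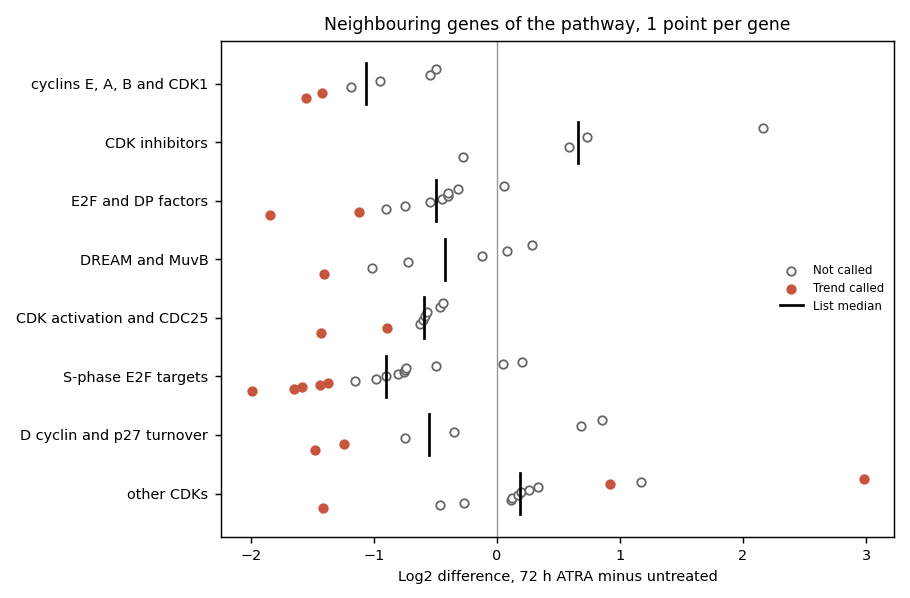
Log2 difference at 72 h for each tested gene of 8 lists of pathway neighbours, 1 point per gene, with a bar at each list's median. Filled red points had a called trend. The list medians run from -1.07 for cyclins E, A, B and CDK1 to 0.66 for the CDK inhibitors.

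Genes with the most similar profiles were ranked by Pearson r over the 6 arrays among 3960 other genes that spanned 1 or more. CCND1 (208712_at) was most like RHOBTB3 (r = 0.995), RASSF5 (0.995) and HERC1 (0.988), all of which were lower at 4 h than in untreated cells. RB1, by 203132_at alone, was most like CYSLTR1 (0.991), FLI1 (0.989) and LYST (0.978), whose differences at 4 h were -1.12, -1.30 and -2.06. The CCND1 and RB1 profiles used dip at 4 h, so genes ranked by likeness to them share that dip by selection. Their 4 h values are no separate evidence of it. The other RB1 probe set, 211540_s_at, had no such dip. CCND2 was most like PRPF39 (0.986), LRRC45 (0.986) and CHORDC1 (0.981). CDK6 was most like BEND3 (0.996), ABLIM1 (0.994) and INTS10 (0.994). CDK4 was most like SLC27A5 (0.9997), MTIF2 (0.999) and NARS2 (0.999). At an r of 0.95 or more, CDK4 had 729 companions, CDK6 110, CCND2 29, CCND1 23 and RB1 11. With 6 points from the same arrays high r values are common, and these are descriptions. Among these members CDK4 had the most companions and RB1 the fewest, and the usual number for a gene was not computed.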

How the data were processed

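The authors deposited log2 values, 1 per probe set and array, made with RMA per the submitters' processing notes. For version and genome build, nothing is stated: not given in the sources used here. RMA equalises the arrays' distributions, which would hide a change shared by most transcripts. Of 54675 probe sets, the platform annotation gave 41097 1 gene, 1801 several and 11777 none. After the control probe sets were left out (62 in all, with or without a gene), 41091 single-gene probe sets remained. For 41037 of them the Entrez identifier was found in the RefSeq genes, which gave the symbol used. Probe sets with a mean at or above 3.66 (22755, of 12591 genes) were tested. Differences of single arrays have no replicate check and no p-value.

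Slopes over time order came from limma 3.58.1 under R 4.3.3, with lmFit and an eBayes step that follows intensity, and were adjusted by Benjamini-Hochberg over all 22755. In simulated data with 22755 probe sets, 100 were given slopes of size 0.3, 100 slopes of size 0.6 and the rest none. This trend fit recovered 47 and 90 of them, with 5 false calls. The data gave 4254 called slopes, which makes the adjustment less strict than in the simulation. These recovery rates therefore do not measure how many slopes of the members' size were missed, though some can be. A p-value here measures scatter around a line over 6 arrays. Motifs were counted in RefSeq promoter windows.

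The members and lists were chosen with earlier results of these data known. All 9 genes were named, up to 4 genes per list with the largest 72 h difference and any called, and 3 most similar genes per member spanning 1 or more. Marker genes are lineage checks, and RRM2, TK1, MCM6 and CKS1B outside the rule were named after their values were seen. Alternatives were cyclic loess, 2 control shifts, other filters, probe set choices, baselines, fold thresholds, predictors, the bioC covariate and leaving out each array. The number of arrays limits the precision.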

Additional observations from a re-analysis of the deposited data

How the results depend on the processing

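No called value or slope changed sign under any alternative tried. Of 142 recomputed counts of members, 89 stayed within 1.5 times. The main counts were 4 falling and 0 rising slopes, and 6 lower and 1 higher at 72 h. Falling slopes were 0 with the shift on all controls, 10 with the shift without bioC, 2 with 1 probe set per gene (CDK4 and CCND3), 1 with the bioC covariate (CDK4), 0 within the 4, 24, 48 and 72 h arrays, and 1 to 4 with an array left out (1 without the untreated or the 72 h array, 2 without the 48 h array). Rising slopes, all of CCND1, were 2 with the shift on all controls, 1 with a filter at percentile 75, 2 with the bioC covariate, 1 within the 4 arrays and 0 to 1 with an array left out (1 without the 4 h array). Of recomputed single-gene values, 175 differences stayed on the same side of 2-fold and 53 crossed it, while 330 slopes kept their side of the threshold, 19 passed it and 25 lost it. Over all tested probe sets limma called 4254 slopes, and 7728 had an unadjusted p under 0.05.

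Both control shifts add 1 constant per array to every probe set, so counts under them move with all probe sets. The shift on all controls uses their median, and the shift without bioC uses a mean. With the shift on all controls, members 2-fold lower at 4, 24, 48 and 72 h numbered 0, 0, 0 and 1, and members 2-fold higher at 24, 48 and 72 h 4, 6 and 3. With the shift without bioC, lower members at 4, 24, 48 and 72 h were 5, 4, 4 and 14, and higher ones at 72 h 0. A 1.5-fold threshold gave 5, 4, 2, 5 and 12 lower at the 5 times in order, and 1, 1 and 2 higher at 24, 48 and 72 h. With 1 probe set per gene 1, 0, 0 and 3 of 9 were lower at 4, 24, 48 and 72 h, where 12.9% of all genes were lower at 72 h. With the filter at percentile 75 1, 0 and 0 were lower at 4, 24 and 48 h. For the 1.5-fold threshold, this filter and the other baselines no share of all tested probe sets is given. Those counts therefore describe the members alone and do not set them apart from other genes. Cyclic loess gave 1 higher at 48 h. With the mean of 0 and 4 h as baseline 0 and 0 were lower at 24 and 48 h, and 2, 1, 1 and 2 higher at 12, 24, 48 and 72 h. With 4 h as baseline these were 0 and 0, and 2, 2, 3 and 3. The cause of these moves was not tested. No paired analysis was possible because each time has 1 array.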
